A study of Mus musculus with 4 samples.

Results

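The teneurins, the latrophilins and the fibronectin leucine-rich transmembrane proteins (FLRTs) were examined in tdTomato-positive cells sorted from the basal telencephalon of mouse embryos at E14.5. The members were chosen by gene name, as *Tenm1* to *Tenm4*, *Adgrl1* to *Adgrl3* and *Flrt1* to *Flrt3*, which gave 10 of the 56883 genes in the deposited table. All 10 were among the 14323 genes whose normalized counts averaged 10 or more across the 4 libraries. Control cells (*Sst-Cre/tdTomato*) and *Dnmt1* KO cells (*Sst-Cre/tdTomato/Dnmt1 loxP2*) were each measured in 2 RNA sequencing libraries, and every embryo carried the Cre recombinase in the *Sst* locus and the Cre-dependent tdTomato reporter. Only the *Dnmt1* KO embryos carried the loxP-flanked *Dnmt1* allele in addition, so that recombination followed *Sst* promoter activity and the label alike. Each library was made from cells pooled over several embryos, without regard to their sex, and the spread given here is that between 2 pools.

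Teneurins are very large transmembrane proteins of the neuronal surface that bind latrophilins on neighbouring cells. Latrophilins are adhesion G protein-coupled receptors, with an extracellular part that holds on to teneurins and FLRTs and an intracellular part that signals through G proteins. FLRTs are single-pass proteins that bind latrophilins and the repulsive Unc5 receptors, and all these families are known for guiding migrating neurons and for selecting synaptic partners.

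Recovered reads ranged from 6970247 to 8376711 per library. *Dnmt1* itself had 2238 and 2341 normalized counts in control and 2164 and 2210 in *Dnmt1* KO cells, a log2 fold change of -0.066 with a limma adjusted p of 0.461. These counts are for the gene as a whole and do not show its floxed part separately. The extent of recombination in the sorted cells was not tested. Markers of the sorted cells were present in every library, and 8 of the 9 interneuron markers, all but *Nkx2-1*, rose in *Dnmt1* KO cells. Their summed normalized count went from 18820 and 19070 in control to 27490 and 27900 in *Dnmt1* KO libraries. Markers of other cells were lower, with summed normalized counts, given for control and then for *Dnmt1* KO libraries, of 10150 to 10240 and 6024 to 6226 for 8 radial glia genes, 2441 to 2516 and 1256 to 1409 for 6 genes of the excitatory lineage, 613 to 665.6 and 264.3 to 276.4 for 7 vessel genes, 2228 to 2407 and 560.3 to 567.1 for 7 blood genes, and 66.2 to 87.8 and 20.7 to 32.8 for 5 microglia genes. Of these lists 6, 5, 7, 6 and 1 genes fell, out of 8, 6, 7, 6 and 2 tested, and the radial glia gene *Sox2* rose. No marker was at 0 in all 4 libraries. In such bulk samples, fewer cells of a type and less RNA per cell cannot be told apart, and the part of these shifts in the results that follow was not tested.

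Of the 10 genes, 3 rose in *Dnmt1* KO cells, *Adgrl1*, *Adgrl3* and *Flrt2*, and 1 fell, *Tenm3*. The changes of these 4 called genes in the mean normalized count were small, from -18.5% for *Tenm3* to 29.8% for *Flrt2*. The 4 calls are 40.0% of the members, where limma called 17.3% of all genes tested at a Benjamini-Hochberg adjusted p below 0.05, 8.30% as higher and 8.99% as lower. The median log2 fold change was 0.18 over the 10 members and -0.0033 over all genes tested. In 9 of the 10 genes, all but *Tenm4*, the libraries of the genotypes did not overlap, as in 57.4% of all genes tested. With 2 libraries per genotype the smallest p of an exact permutation test for 1 gene is 0.333, so each adjusted p rests on a variance that limma shares across genes. Without the trend of that variance over expression level, limma called 0 of the 10 members and 0 of all genes (3 members and 3339 genes at an unadjusted p below 0.05), while edgeR, DESeq2 and limma-voom on recovered reads each called 4 members.

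**Figure D1:**
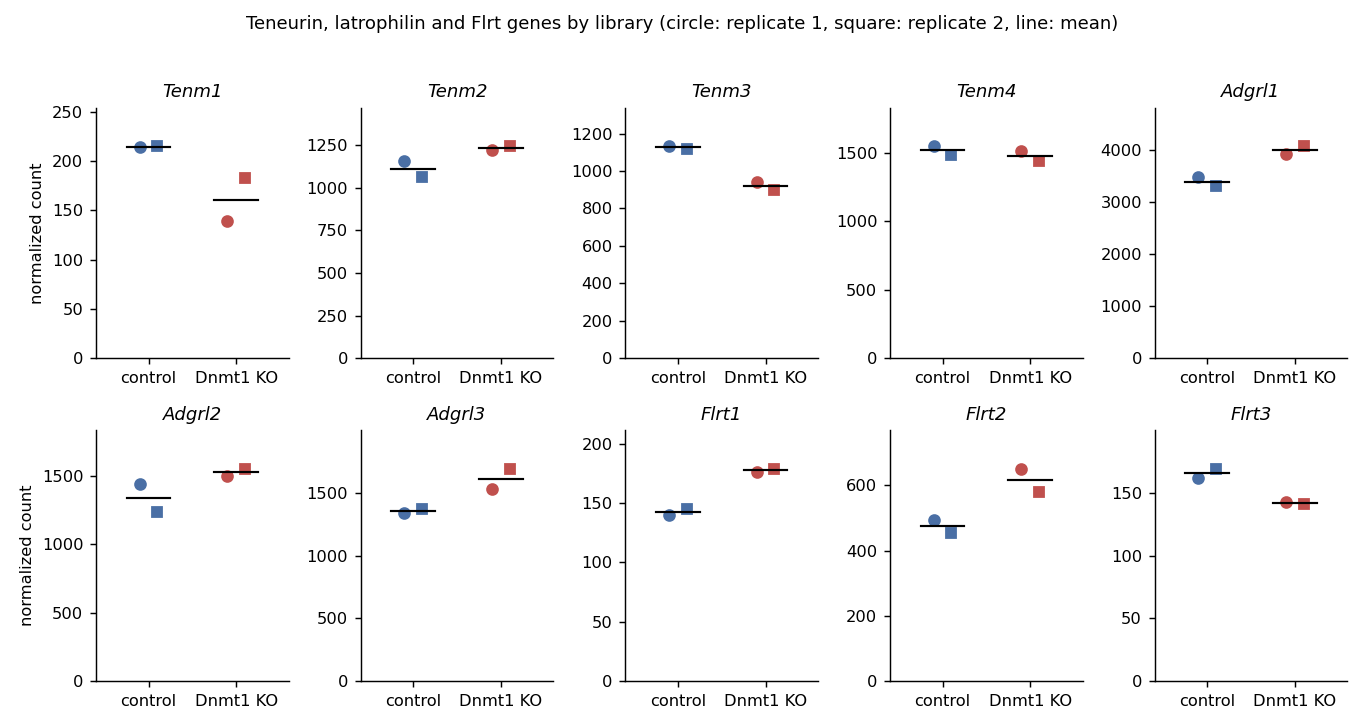
Normalized count (vertical axes, from 0) of the 10 genes in each library, with circles for replicate 1, squares for replicate 2 and a line at the mean of each genotype. *Tenm3* lies lower and *Adgrl1*, *Adgrl3* and *Flrt2* lie higher in both *Dnmt1* KO libraries, and the libraries of *Tenm4* overlap.

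Promoter sequences of the genes with the smallest p in each direction are shown because DNMT1 methylates cytosine in CG, and the density of CG at the annotated start is what these sequences can show. RefSeq promoters, from 250 bases before to 50 bases after the annotated start on GRCm38.p6 (an older build than the GRCm39 used for gene positions), were matched for 9 of the 10 members, all but *Flrt1*. The motif CG, which reads the same on both strands, is in capitals. The *Adgrl1* promoter at chr8:83899848-83900147 on the plus strand holds 28 CG, more than 85.8% of 32851 RefSeq promoters, and the *Tenm3* promoter at chr8:48674641-48674940 on the minus strand holds 10, more than 56.5% of them.
Adgrl1: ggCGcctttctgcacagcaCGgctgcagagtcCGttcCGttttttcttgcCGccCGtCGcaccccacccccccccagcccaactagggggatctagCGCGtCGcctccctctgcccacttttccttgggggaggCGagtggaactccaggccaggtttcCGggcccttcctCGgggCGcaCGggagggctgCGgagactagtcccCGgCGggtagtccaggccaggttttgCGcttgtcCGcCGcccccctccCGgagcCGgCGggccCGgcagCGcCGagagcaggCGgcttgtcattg
Tenm3: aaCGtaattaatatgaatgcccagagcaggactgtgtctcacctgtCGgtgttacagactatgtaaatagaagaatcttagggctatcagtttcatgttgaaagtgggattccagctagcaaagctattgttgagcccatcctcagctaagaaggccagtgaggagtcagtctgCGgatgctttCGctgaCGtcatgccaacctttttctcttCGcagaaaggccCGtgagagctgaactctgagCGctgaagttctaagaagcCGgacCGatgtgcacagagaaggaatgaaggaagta
At least 1 CG is present in 94.6% of all these promoters, with a median of 7. The other members ranged from 0 CG at the *Tenm1* start to 40 at an *Adgrl3* start, with 14 for *Flrt2*, 8 for *Flrt3*, 4 for *Adgrl2*, 2 for *Tenm2*, and 6 and 12 for the starts of *Tenm4*. These counts describe the annotated starts only. The starts used in these cells and their DNA methylation were not analysed here.

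The latrophilins, the receptors of the system, were the family in which all 3 members had a higher mean in *Dnmt1* KO cells. *Adgrl1* (ENSMUSG00000013033.17, GRCm39 chromosome 8 from 84626588 to 84668583) encodes latrophilin 1, the receptor first found through its binding of the black widow toxin α-latrotoxin. Control libraries had 3478 and 3313 normalized counts of it, against 3938 and 4087 in *Dnmt1* KO libraries. Both *Dnmt1* KO libraries were above both control libraries, and the difference exceeded the spread within either genotype. The mean went from 3396 ± 117 to 4012 ± 106 (SD, n = 2 each), which is 0.24 ± 0.049 (standard error) on the log2 scale with a limma adjusted p of 0.00315. This was the smallest p of the 10 genes, and *Adgrl1* stayed below 0.05 with each library left out in turn, with log2 fold changes from 0.21 to 0.28.

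*Adgrl3* (ENSMUSG00000037605.17, chromosome 5 from 81167344 to 81972980) encodes latrophilin 3, a receptor for teneurins and for FLRT3. Its normalized counts were 1342 and 1372 in control and 1534 and 1695 in *Dnmt1* KO libraries. The control libraries were close together and the *Dnmt1* KO libraries lay further apart, without overlap. Its log2 fold change was 0.25 (standard error 0.065, limma adjusted p = 0.0153), nearly the value of *Adgrl1*. The call was lost without control replicate 1, with a limma adjusted p of 0.0707, and without *Dnmt1* KO replicate 2, with a log2 fold change of 0.18 and a limma adjusted p of 0.18.

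*Adgrl2* (ENSMUSG00000028184.13, chromosome 3 from 148518957 to 148696229), the gene of latrophilin 2, had 1440 and 1234 normalized counts in control and 1501 and 1555 in *Dnmt1* KO libraries. The control libraries differed from each other by more than control replicate 1 differed from either *Dnmt1* KO library. Its log2 fold change of 0.20, with a 95% interval from 0.041 to 0.35, did not pass the test (limma adjusted p = 0.0778). Without control replicate 1 it was 0.31 with a limma adjusted p of 0.0145, and without control replicate 2 it was 0.085 with one of 0.50.

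Per kilobase of transcript, *Adgrl1* made up 53.7% and 54.0% of the summed latrophilin level in control and 54.6% and 53.7% in *Dnmt1* KO libraries. Shares of *Adgrl2* were 20.1% to 22.3% in control and 20.5% to 20.8% in *Dnmt1* KO libraries, and those of *Adgrl3* were 24.0% to 25.9% and 24.6% to 25.8%. The ranges of each gene overlapped between genotypes, so no shift within the family exceeded the spread of the libraries. Its summed level was 763.9 and 724.2 normalized counts per kilobase in control and 851.5 and 897.5 in *Dnmt1* KO libraries, without overlap.

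The teneurins, ligands of the latrophilins that also bind each other across cells, moved unequally, with 1 member called lower and none called higher. *Tenm3* (ENSMUSG00000031561.17, chromosome 8 from 48678708 to 49296986) encodes teneurin 3, which is known for matching axons with their target areas in the visual system and the hippocampus. Control libraries had 1135 and 1119 normalized counts, and *Dnmt1* KO libraries had 939 and 897. Replicates lay close together in both genotypes, with the *Dnmt1* KO libraries clearly lower. The mean fell from 1127 ± 11.2 to 918 ± 29.7 (SD, n = 2 each), which is -0.30 ± 0.068 (standard error) on the log2 scale (limma adjusted p = 0.0068). Whichever library was left out, the log2 fold change was between -0.33 and -0.26, and each limma adjusted p was at most 0.0435.

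*Tenm1* (ENSMUSG00000016150.16, chromosome X from 41616743 to 42518044) had the largest log2 fold change of the 10 genes in size, but did not pass the test. Its normalized counts were 214 and 215 in control against 139 and 182 in *Dnmt1* KO libraries. The *Dnmt1* KO libraries were both lower and differed widely from each other. Its log2 fold change was -0.43 with a 95% interval from -0.74 to -0.11 (limma adjusted p = 0.0597). Without *Dnmt1* KO replicate 2 it was -0.62 with a limma adjusted p of 0.00592, and without *Dnmt1* KO replicate 1 it was -0.23 with one of 0.411. Without control replicate 1 or 2 the limma adjusted p was 0.169 or 0.193. The gene is X-linked and embryos were not separated by sex. *Xist*, the RNA of the inactive X chromosome, had 1402 and 1360 normalized counts in control and 3428 and 3311 in *Dnmt1* KO libraries (log2 fold change 1.29), while the Y-linked *Ddx3y*, *Eif2s3y*, *Kdm5d* and *Uty* had log2 fold changes from -0.31 to -0.095, none of which passed the test. The part of sex in the *Tenm1* values was not tested, and these 5 genes were added after their values were seen.

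*Tenm2* (ENSMUSG00000049336.17, chromosome 11 from 35897483 to 37126791) encodes teneurin 2, a high-affinity ligand of latrophilin 1. Its normalized counts were 1158 and 1061 in control and 1221 and 1247 in *Dnmt1* KO libraries, close to each other but not overlapping. The log2 fold change of 0.15, with a 95% interval from 0.010 to 0.30, did not pass the test (limma adjusted p = 0.137). *Tenm4* (ENSMUSG00000048078.17, chromosome 7 from 95820453 to 96560300), the gene of teneurin 4, was counted at 1552 and 1484 in control and at 1515 and 1443 in *Dnmt1* KO libraries. These libraries overlapped, and its log2 fold change was -0.037 with a 95% interval from -0.17 to 0.094 (limma adjusted p = 0.736). *Gm8319*, a pseudogene within *Tenm4* on the opposite strand without shared exonic bases, had 51.0 and 59.2 normalized counts in control and 14.8 and 21.9 in *Dnmt1* KO libraries (log2 fold change -1.56, limma adjusted p = 0.00343).

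Within the teneurin family the balance of *Tenm2* and *Tenm3* was different in both *Dnmt1* KO libraries. Per kilobase of transcript, *Tenm2* held 37.4% and 36.0% of the summed teneurin level in control and 41.5% and 42.7% in *Dnmt1* KO libraries. *Tenm3* held 27.7% and 28.7% in control and 24.1% and 23.2% in *Dnmt1* KO libraries. For *Tenm4*, with 30.8% and 30.9% in control and 31.6% and 30.4% in *Dnmt1* KO libraries, the ranges overlapped, and *Tenm1* held 4.14% to 4.39% in control and 2.83% to 3.75% in *Dnmt1* KO libraries. The summed level was 373.4 and 355.3 normalized counts per kilobase in control and 355.0 and 352.1 in *Dnmt1* KO libraries, without overlap by a narrow margin. The shares are a description of 4 libraries and were not tested. The ranges of *Tenm2* and *Tenm3* also lay apart with the other transcript lengths tried, whereas those of *Tenm4* overlapped with the longest transcript but not with the median length (45.3% to 45.4% in control, 46.5% to 47.4% in *Dnmt1* KO libraries). The size of the shares depended on the length. With the median length *Tenm2* held only 18.8% and 17.9% in control and 21.1% and 22.3% in *Dnmt1* KO libraries, below *Tenm3* and *Tenm4*.

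**Figure D2:**
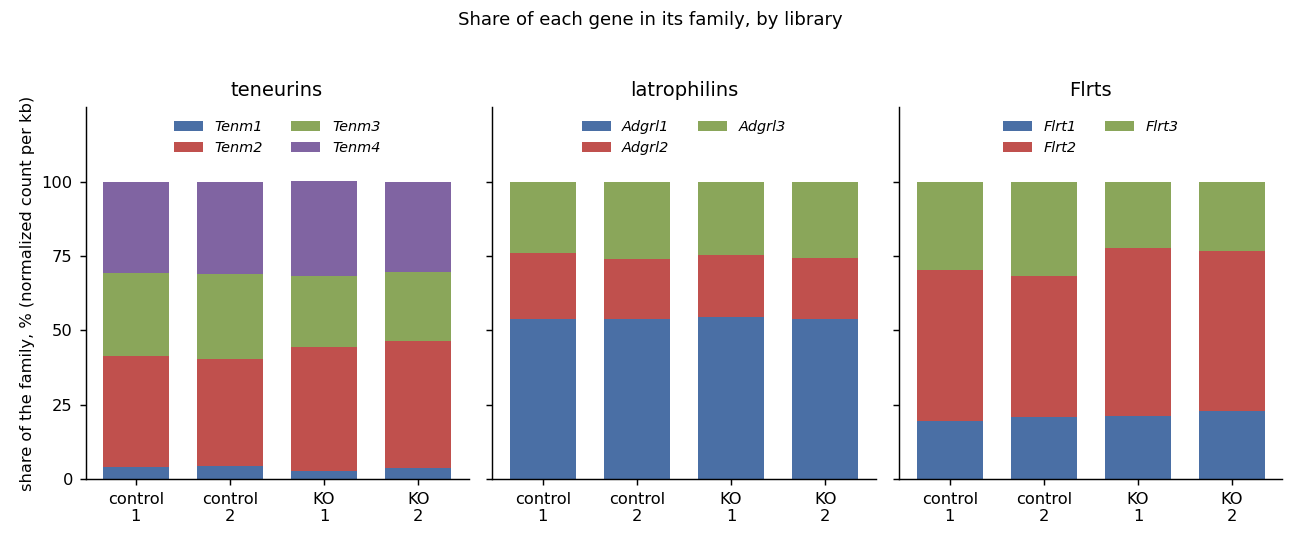
Share of each gene in the summed normalized count per kilobase of its family (vertical axis, percent), with a stacked bar for each library. The *Tenm2* share is 36.0% to 37.4% in control and 41.5% to 42.7% in *Dnmt1* KO libraries, whereas the *Adgrl1* share is between 53.7% and 54.6% in every library.

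Among the FLRTs, which bind latrophilins and Unc5 receptors, *Flrt2* rose and the other members did not pass the test. *Flrt2* (ENSMUSG00000047414.7, chromosome 12 from 95658740 to 95752360) encodes a ligand of Unc5 receptors with repulsive effects on migrating neurons. Control libraries had 495 and 455 normalized counts, against 652 and 581 in *Dnmt1* KO libraries. Replicates differed visibly in both genotypes, and the lowest *Dnmt1* KO library was still above the highest control library. The mean went from 475 ± 28.0 to 617 ± 50.01 (SD, n = 2 each), or by 0.37 ± 0.091 (standard error) on the log2 scale (limma adjusted p = 0.00982). Without control replicate 2 the limma adjusted p was 0.0746, and without *Dnmt1* KO replicate 1 it was 0.0849, with log2 fold changes of 0.31 and 0.29.

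*Flrt1* (ENSMUSG00000047787.9, chromosome 19 from 7069366 to 7143464) had 140 and 145 normalized counts in control and 177 and 179 in *Dnmt1* KO libraries. *Flrt3* (ENSMUSG00000051379.13, chromosome 2 from 140492834 to 140513396), which encodes a ligand of latrophilin 3, had 162 and 169 in control and 143 and 141 in *Dnmt1* KO libraries. Replicates of both genes lay close together, and the genotypes did not overlap in either. Neither difference passed the test, with log2 fold changes of 0.32 (95% interval 0.023 to 0.62, limma adjusted p = 0.134) for *Flrt1* and -0.22 (95% interval -0.52 to 0.081, limma adjusted p = 0.325) for *Flrt3*. *Flrt1* lies on the strand opposite *Macrod1*, with which it shares 229 exonic bases, and *Flrt3* lies within *Macrod2* on the opposite strand without shared exonic bases. *Macrod1* had only 6.26 to 13.1 normalized counts and *Macrod2* had 330.2 to 413, and neither passed the test (log2 fold changes 0.39 and 0.097, limma adjusted p = 0.686 and 0.613). *Gm48014* within *Flrt2* and *Gm43594* within *Adgrl3*, both on the same strand as their host, did not pass the test either (log2 fold changes 0.67 and 0.74).

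Per kilobase of transcript, *Flrt2* held 50.7% and 47.5% of the summed FLRT level in control and 56.6% and 53.8% in *Dnmt1* KO libraries, and *Flrt3* held 29.6% and 31.6% in control and 22.2% and 23.3% in *Dnmt1* KO libraries. Neither pair of ranges overlapped. *Flrt1* held 19.7% to 20.9% in control and 21.2% to 22.9% in *Dnmt1* KO libraries, also without overlap. For comparison, the normalized counts of 57.4% of all genes tested did not overlap between the genotypes. Shares within a family depend on each other, so these are not separate observations, and they were not tested.

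**Figure D3:**
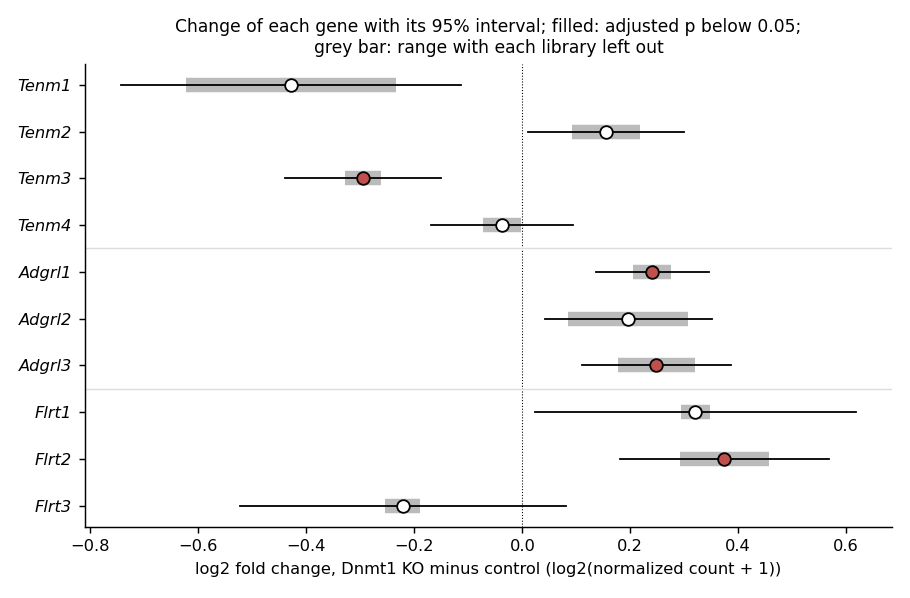
Log2 fold change of each gene (horizontal axis, *Dnmt1* KO minus control on the log2(normalized count + 1) scale) with its 95% interval from limma, filled where the adjusted p was below 0.05, and a grey bar for the range when 1 library at a time was left out. The 3 latrophilins lie right of 0, *Tenm3* lies left of it at -0.30, and *Tenm1* has the widest range with a library left out, from -0.62 to -0.23.

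Levels of different genes were compared per kilobase of the transcript with the longest coding sequence. In control cells *Adgrl1* was highest, with 401 ± 13.8 normalized counts per kilobase (SD, n = 2), more than 93.1% of the 12278 protein-coding genes tested or equal to them. *Adgrl3* followed with 186 ± 2.88, *Adgrl2* with 158 ± 17.2, *Tenm2* with 134 ± 8.29, *Tenm4* with 112 ± 3.53 and *Tenm3* with 103 ± 1.02 normalized counts per kilobase (SD, n = 2 each). *Flrt2*, at 58.6 ± 3.45 normalized counts per kilobase, was near the median of the protein-coding genes, 52.3. *Flrt3* at 36.5 ± 1.17, *Flrt1* at 24.2 ± 0.646 and *Tenm1* at 15.5 ± 0.0785 normalized counts per kilobase were below it. No neighbours in this order overlapped between the 2 control libraries. The order was the same in *Dnmt1* KO cells, but some neighbours lay closer together. These were *Flrt3* at 31.3 ± 0.324 and *Flrt1* at 30.3 ± 0.316 normalized counts per kilobase (SD, n = 2 each). *Tenm3* at 83.7 ± 2.71 and *Flrt2* at 76.1 ± 6.17 normalized counts per kilobase (SD, n = 2 each) were also closer than in control. With the longest transcript as the length, *Tenm4* at 112.1 and *Tenm2* at 112.0 normalized counts per kilobase could no longer be ordered, and with the median length over all transcripts of a gene *Tenm4* at 1138 and *Tenm3* at 893.6 normalized counts per kilobase came before *Adgrl1* at 521.2. The latrophilins had a higher summed control mean than the teneurins with the first length, 744 against 364.4 normalized counts per kilobase, and a lower one with the median length, 869.6 against 2509.

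The members are long transcripts, from 4538 bases for *Flrt3* to 13821 bases for *Tenm1*, where the median over the protein-coding genes tested was 3815 bases. The test was therefore repeated after a fit over transcript length and GC content was taken out of each library. The 4 calls were kept, with log2 fold changes of 0.28 for *Adgrl1*, 0.25 for *Adgrl3*, 0.30 for *Flrt2* and -0.30 for *Tenm3*. *Tenm1* (log2 fold change -0.55, limma adjusted p = 0.0175) and *Tenm2* (log2 fold change 0.21, limma adjusted p = 0.0447) passed the test in addition, which made 6 calls of 10, where 18.1% of all 14285 genes in that fit were called, 10.4% as higher and 7.71% as lower.

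The rises of the members can be set beside the markers of the sorted cells. *Sst* had a log2 fold change of 0.48 and *Lhx6*, the transcription factor of medial ganglionic eminence interneurons, one of 0.73. Those of *Sox6*, *Gad1*, *Gad2*, *Satb1* and *Dlx1* were 0.80, 0.63, 0.53, 0.41 and 0.39, also above the 0.37 of *Flrt2*. *Dlx2* at 0.34 and *Nkx2-1* at -0.030 were below it. *Adgrl4*, a relative of the latrophilins that is known from blood vessels, had 16.1 and 27.6 normalized counts in control and 11.8 and 5.46 in *Dnmt1* KO libraries (log2 fold change -1.28, limma adjusted p = 0.102), beside the lower vessel markers given above.

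Genes known to bind or signal with these families, and other adhesion G protein-coupled receptors, were read from 5 lists. Of their 43 genes, 41 were tested. Of these, 10 rose and 9 fell, with a median log2 fold change of -0.056. The 19 calls are 46.3% of the list genes tested, and they and the counts of each list stand beside 17.3% called over all genes, 8.30% as higher and 8.99% as lower. Among 10 partners of FLRTs, none rose and 4 fell, with a median log2 fold change of -0.37. The FGF receptors bind FLRTs and drive proliferation of progenitors. *Fgfr3* was counted at 241 and 233 in control and at 122 and 120 in *Dnmt1* KO libraries (log2 fold change -0.96, standard error 0.14, limma adjusted p = 0.000164), and *Fgfr1* at 586 and 478 in control and at 354 and 368 in *Dnmt1* KO libraries (log2 fold change -0.55, limma adjusted p = 0.00202). *Unc5b*, the gene of a repulsive receptor for FLRTs and netrins, had a log2 fold change of -0.69 (limma adjusted p = 0.0286), and *Rnd1*, the gene of a small GTPase linked to FLRT3, one of -1.49 from at most 30.4 normalized counts (limma adjusted p = 0.0332). *Unc5c*, the gene of another netrin and FLRT receptor, had 550 and 527 in control and 562 and 684 in *Dnmt1* KO libraries and did not pass the test (log2 fold change 0.20, limma adjusted p = 0.17), nor did *Unc5a*, *Unc5d*, *Robo1*, *Gpc3* and *Fgfr2*. The falls stand beside the radial glia markers, of which 6 were called lower. Their log2 fold changes ran from -1.03 for *Nes* and *Vim* to -0.66 for *Pax6*. *Hes1* did not pass the test (log2 fold change -0.84, limma adjusted p = 0.1), and *Sox2* rose by 0.40 on the log2 scale. The part of these marker shifts in the falls was not tested.

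Of 4 other extracellular partners of latrophilins, 2 rose and 2 did not pass the test, with a median log2 fold change of 0.16. Neurexins are presynaptic adhesion proteins that bind latrophilin 1. *Nrxn3* rose from 2226 and 2350 in control to 4188 and 4206 in *Dnmt1* KO libraries (log2 fold change 0.88, standard error 0.050, limma adjusted p = 2.88e-08), and *Nrxn2* from 2946 and 2882 to 4025 and 4051 (log2 fold change 0.47, limma adjusted p = 7.2e-06). *Cntn6*, the gene of a contactin that binds latrophilin 1, did not pass the test, at a log2 fold change of -0.36 from a mean of 30.3 normalized counts (limma adjusted p = 0.513).

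Of the 9 intracellular partners of latrophilins, 5 rose and 1 fell, with a median log2 fold change of 0.33. The SHANK scaffolds, which hold receptors at postsynaptic sites and bind the tail of latrophilins, were all called higher. *Shank1* was counted at 1827 and 1811 in control and at 2295 and 2429 in *Dnmt1* KO libraries (log2 fold change 0.38, limma adjusted p = 0.000251), *Shank2* had a log2 fold change of 0.38 and *Shank3* one of 0.33 (limma adjusted p = 0.00249 and 0.0324). *Arhgef12*, the gene of an exchange factor that links G12 family proteins to RhoA, rose by 0.45 on the log2 scale (limma adjusted p = 3.68e-05), and *Gnaq*, the gene of a G protein subunit, by 0.34 (limma adjusted p = 0.00186). *Gnas*, which encodes the stimulatory G protein subunit, fell by 0.23 on the log2 scale (limma adjusted p = 0.00181). *Gna12*, *Gna13* and *Arhgef11* did not pass the test, with log2 fold changes from -0.061 to 0.16.

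Of 4 intracellular partners of teneurins, 2 fell. *Zic1*, a transcription factor gene linked to the teneurin intracellular domain, went from 1001 and 933 in control to 588 and 591 in *Dnmt1* KO libraries (log2 fold change -0.71, limma adjusted p = 1.21e-05), and *Sorbs3*, the gene of a cytoskeletal adaptor, from 40.3 and 40.8 to 18.7 and 15.3 (log2 fold change -1.21, limma adjusted p = 0.021). *Mbd1*, which encodes a protein that binds methylated CG and teneurin 1, had a log2 fold change of 0.016 (limma adjusted p = 0.951).

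Among 16 other adhesion G protein-coupled receptors, 14 were tested, 3 rose and 2 fell. *Celsr3*, a planar polarity gene of postmitotic neurons, rose by 0.38 on the log2 scale (limma adjusted p = 0.000376), and *Adgrb1* and *Adgrb2*, of the brain angiogenesis inhibitor family, by 0.24 and 0.21 (limma adjusted p = 0.0235 and 0.0484). *Celsr1*, its relative in progenitors, was counted at 654 and 544 in control and at 252 and 314 in *Dnmt1* KO libraries (log2 fold change -1.08, limma adjusted p = 1.56e-05), and *Adgrv1*, the gene of the largest receptor of the class, had a log2 fold change of -0.95 (limma adjusted p = 3.65e-06). Over all lists, 13 of the 19 calls held whichever library was left out.

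The remaining 6 calls depended on single libraries. Without control replicate 1, the limma adjusted p was 0.199 for *Unc5b*, 0.188 for *Rnd1*, 0.204 for *Shank3*, 0.102 for *Sorbs3* and 0.0879 for *Adgrb1*. Without control replicate 2, the limma adjusted p was 0.067 for *Unc5b*, 0.0892 for *Rnd1*, 0.115 for *Sorbs3*, 0.0572 for *Adgrb1* and 0.237 for *Adgrb2*. Without *Dnmt1* KO replicate 1, it was 0.154 for *Unc5b*, 0.162 for *Shank3*, 0.0502 for *Adgrb1* and 0.0704 for *Adgrb2* in limma. Without *Dnmt1* KO replicate 2, it was 0.125 for *Rnd1*, 0.0555 for *Sorbs3*, 0.126 for *Adgrb1* and 0.222 for *Adgrb2* in limma. DESeq2 on recovered reads gave adjusted p values of 0.163 for *Unc5b*, 0.145 for *Shank3*, 0.141 for *Sorbs3*, 0.0981 for *Adgrb1* and 0.176 for *Adgrb2*, and none for *Rnd1*.

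**Figure D4:**
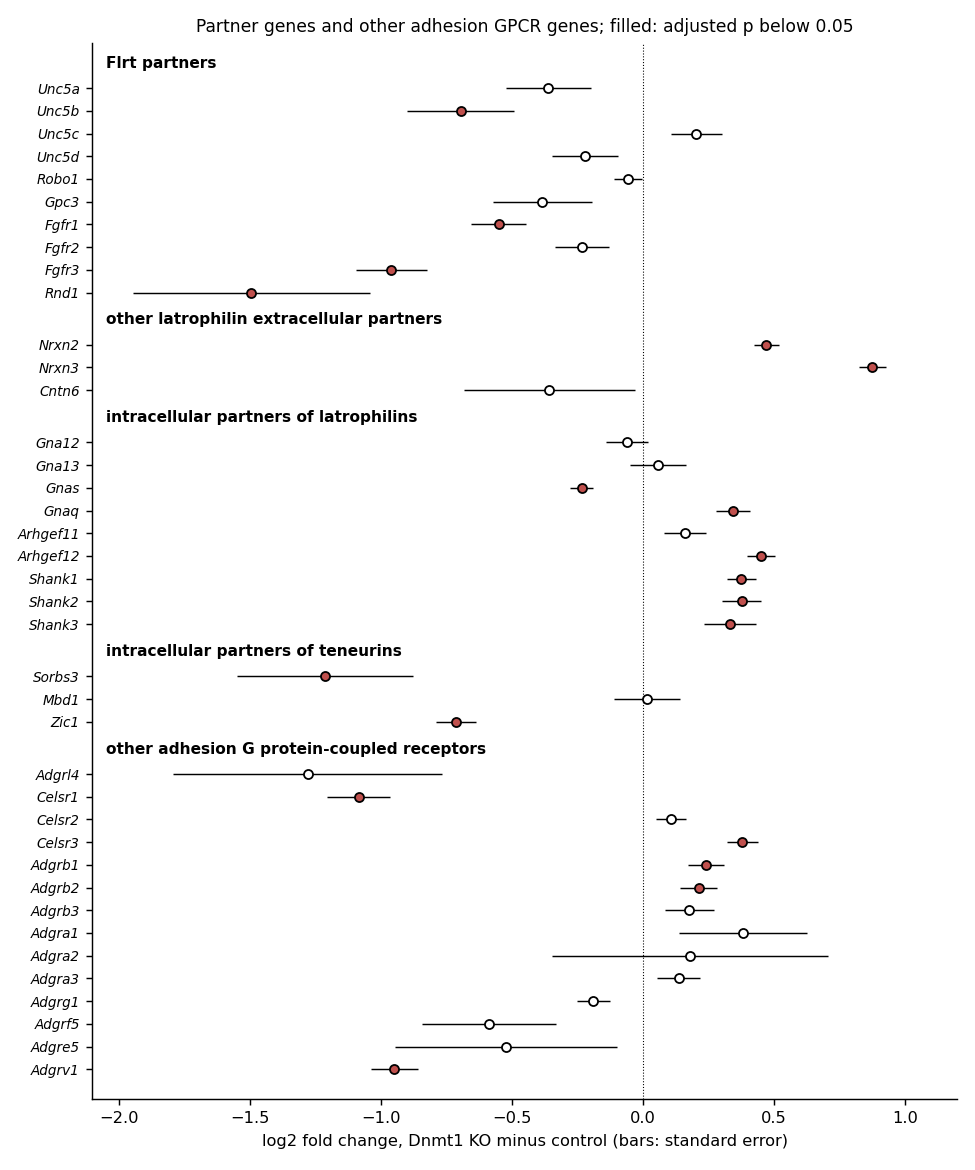
Log2 fold change (horizontal axis, *Dnmt1* KO minus control) of genes of the 5 lists with the standard error from limma, filled where the adjusted p was below 0.05. Among the FLRT partners the 4 called genes lie left of 0, and among the intracellular partners of latrophilins 5 of the 6 called genes lie right of it.

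The genes most like *Adgrl1* were sought over the 4 libraries by the Euclidean distance of log2 values centred on each gene's mean, among 8417 other genes averaging 100 or more normalized counts. *Gm49759* was nearest at 0.0165, followed by *Dnajc5*, the gene of a synaptic vesicle chaperone, at 0.0201 and *Mex3b*, the gene of an RNA-binding protein, at 0.0207. Their log2 fold changes were 0.23, 0.24 and 0.24 (limma adjusted p = 0.284, 0.0229 and 0.0216), so *Gm49759* did not pass the test. With 4 libraries many genes lie at similar distances.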

How the data were processed

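RNA sequencing of 4 libraries was analysed, 2 per genotype, grouped by the sample titles. Per the study's methods, the authors used Trim Galore for trimming, STAR for alignment to GRCm39 and Salmon for quantification. They deposited a signal per gene and library, namely DESeq2-normalized counts. Within a library, 100% of values above 0 were whole multiples of the same number (tolerance 0.0001 of a read), and whole reads were recovered from them. Whether reads were counted by strand is not given in the sources used here, and genes that overlap are uncertain.

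The libraries of 1 genotype differed beyond counting noise (chi-square per degree of freedom 2.71 for control, 2.31 for *Dnmt1* KO). Values were taken as log2(normalized count + 1), and genes averaging 10 or more normalized counts entered limma 3.58.1 under R 4.3.3 (variance trend, genotype as the only term) with Benjamini-Hochberg adjustment over all 14323 genes, at 0.05. A fold change on this scale understates that of low genes. Gene positions and lengths came from GENCODE on GRCm39, and promoters from RefSeq on GRCm38.p6. Steps were checked on simulated data. Pseudocounts of 0.5 and 10, minimum means of 1 and 50, no minimum, TMM, quantile normalization, no variance trend, edgeR 4.0.16, DESeq2 1.42.0 and limma-voom (these on recovered reads), length and GC splines with 5 degrees of freedom, a replicate block and leave-one-out fits were the alternatives. With a library left out, limma assumes that the lone library varies like the others.

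The genes named are the 10 members, *Dnmt1*, called genes of 5 lists of partners and relatives, overlapping genes tested, the nearest genes and cell type markers. Members and lists were chosen with earlier results of these data known, and uncalled list genes were named after their values were seen. Some list genes enter the counts but are not reported here by name. The other data types of the study were not analysed here.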

Additional observations from a re-analysis of the deposited data

How the results depend on the processing

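The 4 member calls, 3 higher and 1 lower, and their directions were the same with pseudocounts of 0.5 and 10, minimum means of 1 or none, TMM, quantile normalization, edgeR, DESeq2 and limma-voom, and no member changed sign in any alternative run. Limma without the variance trend called 0 members, 0 list genes and 0 of all genes, with an unadjusted p below 0.05 for 3 members and 3339 of all genes, while edgeR called 2528 genes and DESeq2 1327, against 2476. Members called lower numbered 2, with *Tenm1* added, at a minimum mean of 50, where 10385 genes were tested, and with length and GC trends taken out. Leaving out 1 library at a time, 3 to 4 members were called, 2 to 3 higher and 1 to 2 lower, and 14 to 17 list genes and 1525 to 2205 of all genes. Replicate numbers are shared between genotypes only as numbers, with a correlation of 0.016 between the deviations of equal numbers over 8418 genes. With the replicate number as a block, 6 members were called, 4 higher and 2 lower, with *Tenm1* and *Adgrl2* added, and 2957 of all genes. The highest level per kilobase of a member was 25.8 times the lowest in control, and 68.2 times with the median length over transcripts. *Dnmt1* changed sign to 0.018 with length and GC trends taken out, where 57.4% of calls were higher against 48.0% and the median of all genes was 0.042. The cause of these shifts was not tested. The members with the fewest reads were *Flrt1*, *Flrt3* and *Tenm1*, with means of 142 to 215 normalized counts in control, and the part of depth in their missing calls was not tested.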
